A study of Rattus norvegicus with 4 samples.

Results

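The muscle microRNAs miR-206, miR-1, miR-133a and miR-133b were followed in the extracellular vesicles (EVs) of a pair of rat cell lines. Members were taken by name, as every listed name that starts with miR-206-, miR-1-, miR-133a or miR-133b, which gave 9 of the 836 names in either deposited table. The table that covers all 4 libraries lists 8 of its 762 names as members, and the table that covers PC12 only lists 3 of its 594. miR-206-3p (listed as rno-miR-206-3p) was chosen by its counts in these data, which were much higher in RMT1 than in PC12 vesicles, so that difference and the levels behind it are given as a description, without a test. The question put to the data was whether miR-206 travels with its muscle partners.

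RMT1 EV comprises 2 libraries, RMT1 EV 1 and RMT1 EV 2, from a line labelled as a breast cancer cell, whose vesicles were pelleted from culture medium by ultracentrifugation. PC12 EVd and PC12 EVu are 1 library each from PC12, labelled as a catecholamine cell, a line that was established from an adrenal medulla tumour (pheochromocytoma). The labels do not explain the letters d and u, and name no treatment, genotype or time for any group. They do not state whether the 2 RMT1 libraries are from different cultures, nor whether both lines were handled together, so cell line and preparation cannot be told apart.

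In the table of all 4 libraries the counts sum to 799224 in RMT1 EV 1, 716940 in RMT1 EV 2, 338233 in PC12 EVd and 436840 in PC12 EVu. The markers fitted the labels of both lines. The 6 epithelial markers (the miR-200 family, miR-141, miR-205 and miR-203a) sum to 11308 and 10981 CPM (counts scaled to a total of 1000000) in RMT1 EV 1 and 2, against 186 CPM in EVd and 195 CPM in EVu. The 3 neuroendocrine markers miR-375-3p, miR-7a-5p and miR-9a-5p sum to 1485 and 1576 CPM in the RMT1 libraries, against 24261 CPM in EVd and 27053 CPM in EVu. Neither line is labelled as muscle.

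These microRNAs are often called myomiRs, since skeletal and heart muscle make them in large amounts under the control of myogenic factors such as MyoD and Mef2. miR-1 and miR-206 favour muscle differentiation, in mouse by repressing the histone deacetylase Hdac4, while miR-133 restrains serum response factor. In mammals miR-206 is made from a cluster with miR-133b, and miR-1 from clusters with miR-133a. miR-206 is found mainly in skeletal muscle, and in human breast cancer lines it represses the oestrogen receptor alpha.

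The mature sequences show why some members are hard to tell apart. They are RefSeq sequences of the rat build GRCr8, written 5′ to 3′ with the seed (bases 2 to 8) in capitals, and 7 of the 8 member names in the table of all 4 libraries matched an entry. The first group shares the seed of miR-206 and holds miR-1b, whose name falls outside the rule.
miR-206-3p: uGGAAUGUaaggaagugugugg
miR-1-3p: uGGAAUGUaaagaaguguguau
miR-1b: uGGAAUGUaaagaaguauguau
The second group is the main arm of miR-133a and miR-133b.
miR-133a-3p: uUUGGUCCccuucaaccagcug
miR-133b-3p: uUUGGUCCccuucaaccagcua
The other arm of miR-133b has another seed and is shown because the deposited tables disagree on it.
miR-133b-5p: gCUGGUCAaacggaaccaagu

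Counted from 1 at the 5′ end, miR-1-3p differs from miR-206-3p at 3 of 22 bases, G11A, G21A and G22U (the miR-206-3p base first). miR-1b differs from miR-1-3p at 1 base, G17A, and from miR-206-3p at 4. miR-133b-3p differs from miR-133a-3p at the last base alone, G22A, so the split between these names is uncertain and the PC12 table lists them as 1 name. No other name among the 693 mature rat microRNAs of the RefSeq table has either main-arm seed.

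miR-206-3p lies at chr9:30590747-30590768 on the plus strand, and its hairpin is annotated there as the microRNA gene Mir206. The hairpin of miR-133b follows on the same strand at chr9:30594582-30594665, with 3801 bases between them. miR-133a-3p and miR-1-3p lie on chromosome 18, on the minus strand. The Mir206 hairpin is printed with the 3′ arm, the counted product, in capitals at bases 51 to 72 of 84.
Mir206: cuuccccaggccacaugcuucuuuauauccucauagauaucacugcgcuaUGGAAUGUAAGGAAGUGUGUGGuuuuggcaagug

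miR-206-3p was abundant in RMT1 vesicles and rare in PC12 vesicles. It had 2889 counts in RMT1 EV 1 and 2639 in RMT1 EV 2, against 6 in EVd and 1 in EVu. The RMT1 libraries gave nearly the same level, 3615 and 3681 CPM, and the PC12 libraries lay far below them at 17.7 CPM in EVd and 2.29 CPM in EVu. As a share of all counts it averaged 0.365% ± 0.00468 (SD, n = 2) in RMT1, against 0.00177% in EVd (exact Clopper-Pearson 95% interval 0.000651% to 0.00386%) and 0.000229% in EVu (5.8e-06% to 0.00128%). These intervals, and those that follow, cover counting error only. It ranked 30th of 277 names with counts in RMT1 EV 1 and 27th of 263 in RMT1 EV 2. In EVd it ranked 246th of 364 and in EVu 348th of 388.

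None of the 7 partner names came near that level in RMT1 vesicles. miR-1-3p, its closest relative in sequence among the members, had 5 counts in RMT1 EV 1 (6.26 CPM) and 0 in RMT1 EV 2, EVd and EVu. miR-133a-3p had 1 and 0 counts in the RMT1 libraries, against 4 in EVd and 5 in EVu. So miR-133a-3p was the partner with counts in both PC12 libraries, at 11.8 and 11.4 CPM, and it was near 0 in RMT1. miR-206-5p, miR-1-5p, miR-133a-5p, miR-133b-3p and miR-133b-5p had 0 counts in each of the 4 libraries. By counting error alone, a count of 0 allows up to 3 counts, which is 1.98 CPM over both RMT1 libraries and 3.87 CPM over both PC12 libraries. That floor lies 1843 times below the 5528 miR-206-3p counts of the RMT1 libraries. It is no limit where a name goes uncounted, since the PC12 table gives miR-133b-5p 25 counts in EVd and 11 in EVu.

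**Figure D1:**
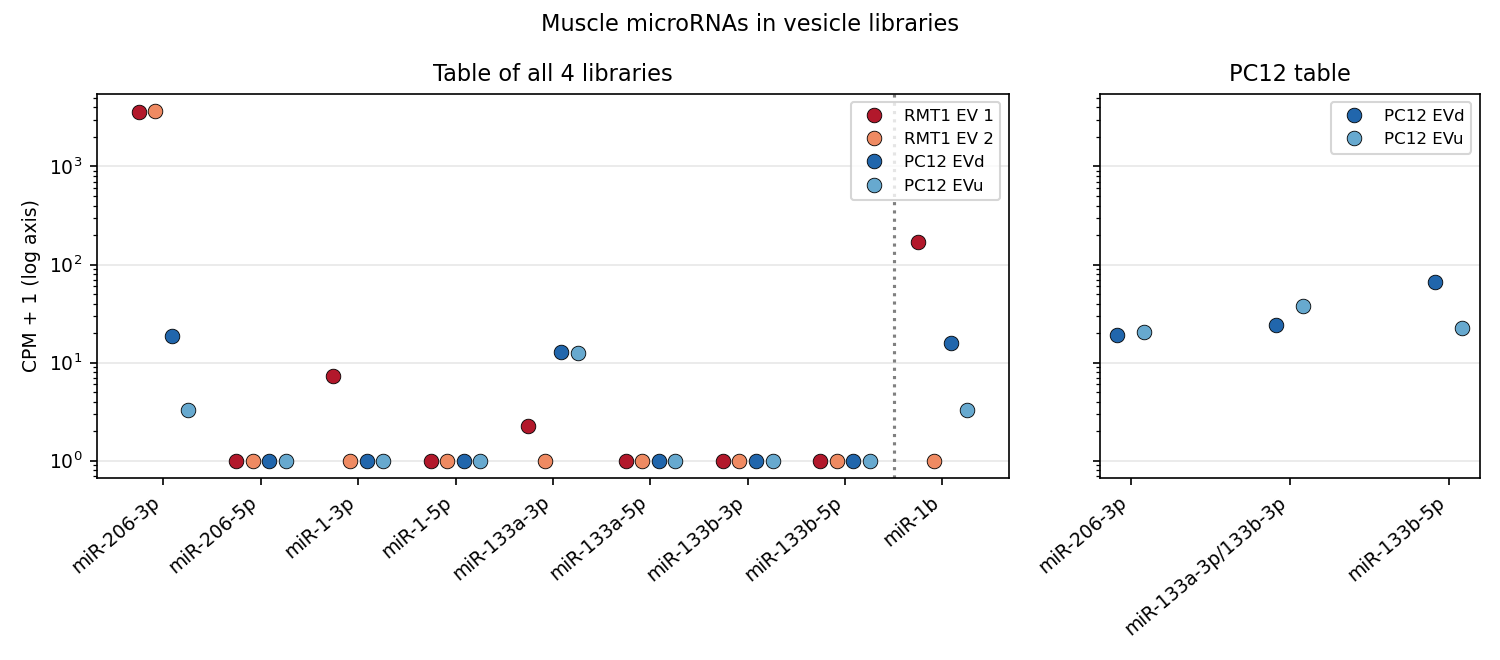
Levels of the 8 member names and miR-1b (right of the dotted line) in the table of all 4 libraries, and of the 3 members in the PC12 table, as CPM + 1 on a log axis with 1 point per library, so that a point at 1 is a count of 0. miR-206-3p stands at 3615 and 3681 CPM in the RMT1 libraries, and no partner exceeds 6.26 CPM there.

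Within the group, miR-206-3p therefore took nearly the whole of the RMT1 signal and a smaller share of the PC12 signal. It made up 5528 of 5534 member counts in RMT1, or 99.89% (99.76% to 99.96%), and 7 of 16 in PC12, or 43.8% (19.8% to 70.1%). RMT1 EV 1 held 6 partner counts and RMT1 EV 2 held 0, against 4 in EVd and 5 in EVu. So the high miR-206-3p of both RMT1 libraries stood beside at most 6 counts of the 7 partner names.

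Between the lines the ratio of pooled shares of miR-206-3p, RMT1 over PC12, was 404 (95% counting interval 196 to 1005), a log2 ratio of 8.66. Among the 250 names with a mean of at least 10 counts, 5.6% had a ratio of at least 100, and miR-206-3p stood 9th, with 7 of the names above it at 0 counts in PC12. In the authors' scaling its difference in mean log2 value was 10.65. The log2 ratio was 7.68 against EVd alone and 10.64 against EVu alone, as EVu held 1 count. miR-133a-3p and miR-133b-3p together went the other way, with 1 count in RMT1 and 9 in PC12, a log2 ratio of -4.14 (-9.59 to -1.29). The 7 partners summed to 3.96 CPM in RMT1 and 11.6 CPM in PC12, a log2 ratio of -1.55 whose interval (-3.32 to 0.10) includes 0. Of 250 names 60.4% were at least 2-fold lower in RMT1 on this scale and 21.2% at least 2-fold higher. No test is given for these ratios.

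**Figure D2:**
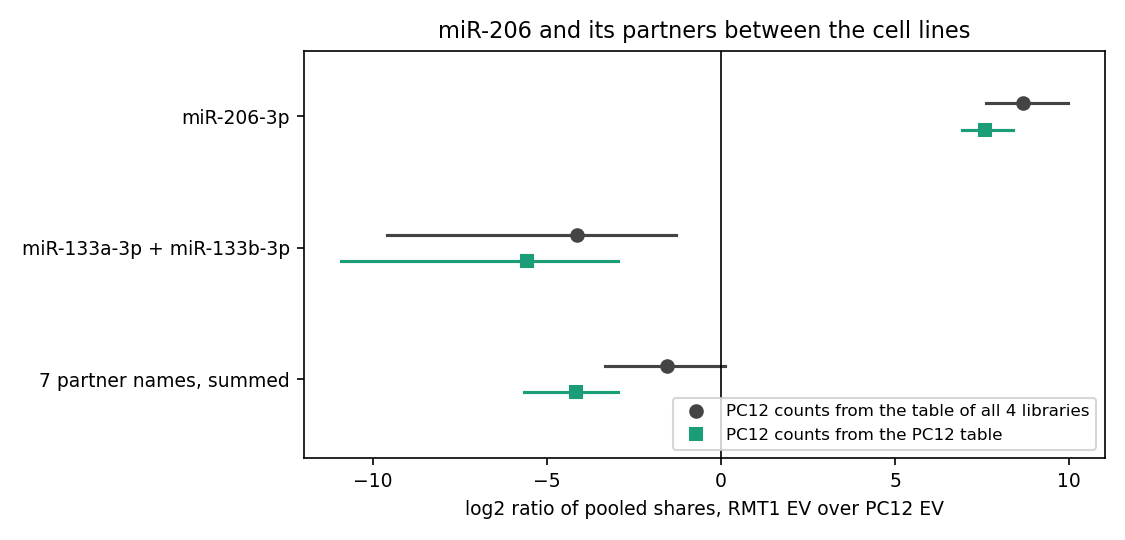
Log2 ratio of pooled shares, RMT1 EV over PC12 EV, for miR-206-3p, for the main arms of miR-133a and miR-133b, and for the 7 partners summed. Bars are 95% counting intervals, circles take the PC12 counts from the table of all 4 libraries and squares from the PC12 table. miR-206-3p lies above 0 from either source, at 8.66 and 7.59, and the partner sums at -1.55 and -4.17. The PC12 table lists 2 partner names, so the sums do not cover the same names.

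The PC12 table holds another count of the same PC12 libraries, and there the partners outnumber miR-206-3p. It lists 7 counts of miR-206-3p in EVd and 10 in EVu, or 18.1 and 19.5 CPM. The joint name of miR-133a-3p and miR-133b-3p has 9 counts in EVd and 19 in EVu. miR-133b-5p, the lesser known arm of the miR-206 cluster partner, has 25 counts in EVd and 11 in EVu, although the table of all 4 libraries gives it 0 in both. With these counts miR-206-3p made up 17 of 81 member counts of PC12, or 21.0% (12.7% to 31.5%). Its ratio of RMT1 over PC12 was 193 (120 to 331), which is 2.09 times smaller than from the other table.

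The disagreement is common among names of low count. Of 213 names with 12 to 50 summed counts in the PC12 table, 105 (49.3%) were at 0 in both PC12 libraries of the table of all 4 libraries, as were 62 of 307 names (20.2%) with more. The PC12 table lists no name under 12 summed counts and does not list miR-1. No second table of the RMT1 libraries was used here, so the RMT1 counts of 0, miR-133b included, could not be set against another count.

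The RMT1 libraries differed in the rest of the seed group. miR-1b had 136 counts in RMT1 EV 1 (170 CPM), 0 in RMT1 EV 2, 5 in EVd and 1 in EVu. Thus it was the 90th name of RMT1 EV 1, while its replicate held none. With miR-1-3p added, the miR-1 forms came to 141 and 0 counts in the RMT1 libraries, against 5 in EVd and 1 in EVu. Of the 100 names with at least 100 counts in either RMT1 library, miR-1b was the 1 name at 0 in the other. miR-206-3p itself differed between these libraries by a ratio of 0.982 (0.931 to 1.04), within counting error. miR-1b was looked at after the member values were seen.

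**Figure D3:**
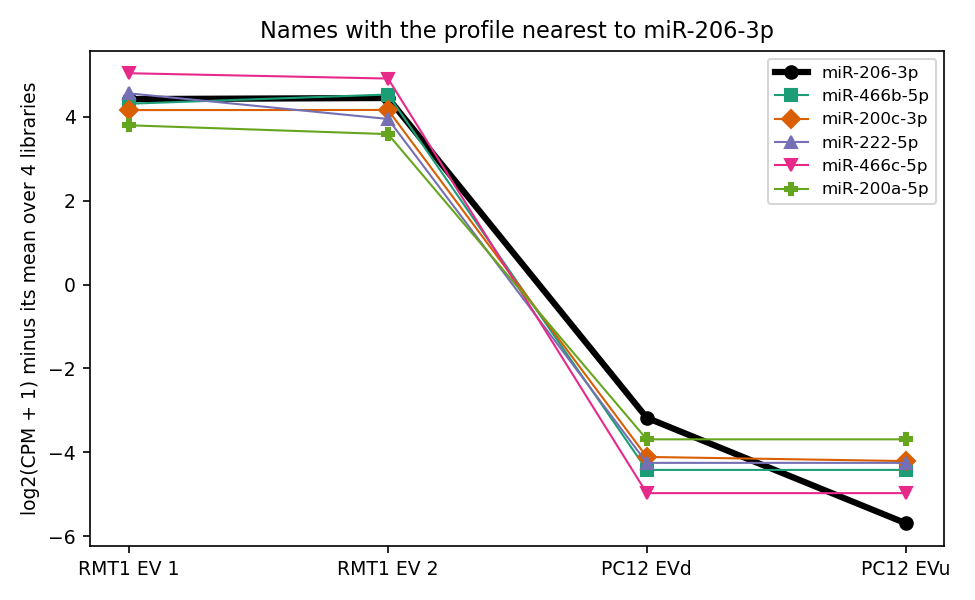
Profiles of miR-206-3p (black) and the 5 names nearest to it across the 4 libraries, as log2(CPM + 1) centred on each name's own mean. Lines join points of 1 name, and each name is high in both RMT1 libraries and low in both PC12 libraries, with miR-206-3p lower in EVu than in EVd.

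The names whose profile lay nearest to miR-206-3p were sought among the 250 names averaging 10 or more counts, a minimum that none of its 7 partners reached, so the partners could not appear. miR-206-3p was chosen for its gap between the lines and passed that minimum through RMT1 alone, so names with a like gap were bound to lie nearest, and the result is a description. Nearness was the Euclidean distance between centred log2(CPM + 1) values over the 4 libraries. The nearest was miR-466b-5p at a distance of 1.78, with 337 and 352 counts in RMT1 EV 1 and 2, against 0 in EVd and 0 in EVu. miR-200c-3p, which represses the mesenchymal factor Zeb1, followed at 1.79, with 3872 and 3480 counts in RMT1, against 5 in EVd and 6 in EVu. Its level was also close to that of miR-206-3p, at 4845 and 4854 CPM in RMT1. miR-222-5p (1.87), miR-466c-5p (2.08) and miR-200a-5p (2.32) came next, each at 0 in both PC12 libraries. miR-222-5p is uncertain, since the PC12 table gives it 106 counts in EVd and 96 in EVu. With a pseudocount of 10 CPM in place of 1, 2 of these 5 names were kept, miR-200c-3p and miR-466c-5p. These 4 libraries from 2 lines cannot separate such profiles further.

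EVd and EVu have 1 library each, so no test was made between them. In the PC12 table miR-133b-5p was higher in EVd, with 64.6 CPM against 21.5 CPM in EVu, a log2 ratio of 1.59 (counting interval 0.51 to 2.76). The joint name of miR-133a-3p and miR-133b-3p had 23.3 CPM in EVd and 37.1 CPM in EVu, a log2 ratio of -0.67 (-2.00 to 0.54). miR-206-3p had a log2 ratio of -0.11 (-1.74 to 1.43). Thus 1 of the 3 members, of which miR-206-3p averaged under 10 counts, was at least 2-fold higher in EVd, where 14.2% of the 472 microRNA names averaging 10 or more counts were, and 0 members were at least 2-fold lower, where 7.2% of names were. The arms of miR-133b, which come from 1 hairpin, lay on opposite sides of 0, though the joint name also counts miR-133a.

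The other table of these libraries gave miR-206-3p 6 counts in EVd and 1 in EVu, a log2 ratio of 2.95 (-0.09 to 8.48), so its direction depended on the table. There miR-133a-3p had a log2 ratio of 0.05 (-2.29 to 2.26). The 8 blood and serum markers, among them miR-451-5p, miR-223-3p and miR-142-3p, moved much more between these libraries, at 121 CPM in EVd and 1733 CPM in EVu, with 2 of 8 at 0 in EVd and 0 in EVu. In RMT1 EV 1 and 2 they sum to 63.8 and 57.2 CPM, with 2 and 6 of 8 at 0. Their part in the members' values was not tested.

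**Figure D4:**
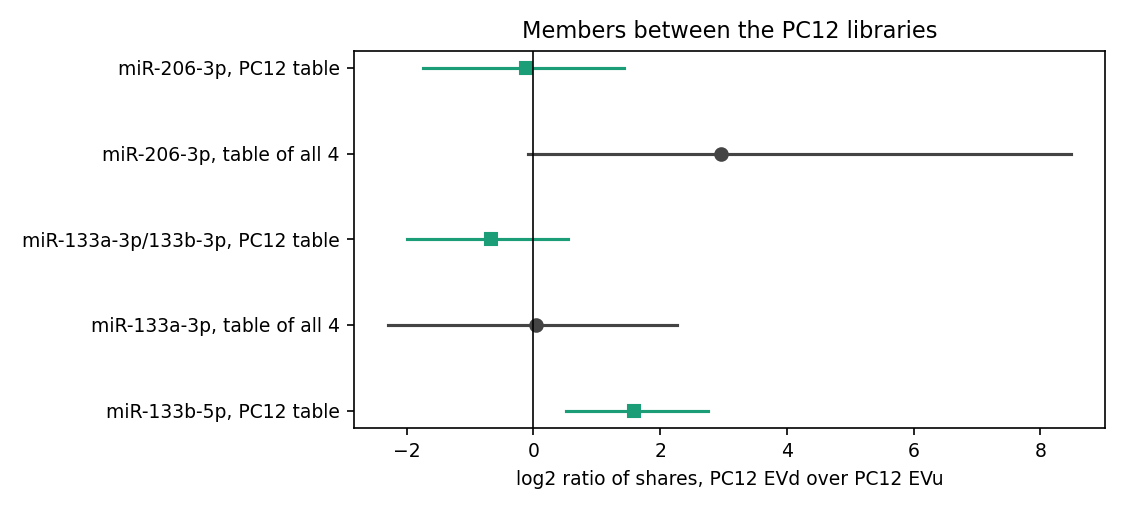
Log2 ratio of shares, PC12 EVd over PC12 EVu, for the members with counts in both libraries, with 95% counting intervals, from the PC12 table (squares) and the table of all 4 libraries (circles). The interval of miR-133b-5p, 0.51 to 2.76, lies above 0 and the other 4 intervals include 0.

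Other microRNAs tied to muscle lay on both sides of 0 between the lines. The list holds names enriched in striated muscle (miR-208a, miR-208b, miR-499 and miR-486) and widely expressed names reported to promote or restrain muscle differentiation. RMT1 EV was compared with the mean of EVd and EVu by limma on the authors' log2 values over 278 names, with adjustment over all of them. Of 21 tested list names 8 passed an adjusted p of 0.05 as higher in RMT1 and 5 as lower, where 33.1% of all tested names were higher and 37.1% lower. The share called lower over all tested names, here and below, includes names at 0 in both RMT1 libraries. Their RMT1 pair has no spread, as for miR-451-5p at -3.76 ± 0.0019 (log2 ± SE), with 2 counts in EVd and 38 in EVu. No tested list name was at 0 in both RMT1 libraries, so that share is not a like background. The list's median log2 difference was 0.40, against -1.12 over all tested names. Scaled by library totals, 4 were higher and 10 lower, where 23.0% of all tested names were higher and 52.2% lower. The medians were then -1.22 and -2.54. So the balance shifted toward lower with the scaling, in the list and over all tested names. Without RMT1 EV 1, in a fit of 2 groups, 4 were higher and 4 lower, and without RMT1 EV 2 there were 3 and 4. Both fits kept miR-155-5p, miR-26a-5p and miR-31a-5p as higher and miR-27b-3p, miR-29b-3p, miR-29c-3p and miR-186-5p as lower. In the fits of 3 groups the spread behind the p-values comes from 1 pair of RMT1 libraries that may be technical replicates. In the fits without an RMT1 library it comes from EVd against EVu alone. The names kept there thus carry no measure of spread between RMT1 libraries.

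Among names enriched in striated muscle, the heart microRNAs miR-208a and miR-208b had 0 counts in all 4 libraries for both arms. miR-499-5p, made from an intron of the myosin gene Myh7b, had 57 and 45 counts in RMT1 EV 1 and 2, against 12 in EVd and 20 in EVu. It exceeded its PC12 level by 2.22 ± 0.07 (log2 ± SE, adjusted p = 0.0123 in limma), but by library totals its difference was 0.72 and did not pass. miR-499-3p had 0 counts in both RMT1 libraries and in EVd and 1 in EVu, while the PC12 table lists it with 270 counts in EVd and 233 in EVu. The PC12 table also gives miR-208b-3p 16 counts in EVd and 9 in EVu. miR-486, which is shared by muscle and red blood cells, had 11 and 14 counts in RMT1, against 1 in EVd and 181 in EVu, with a difference of 0.40 ± 0.38 (limma adjusted p = 0.449).

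Of 12 tested names reported to promote muscle differentiation, 3 were higher, 4 lower and 5 not called, near the 33.1% and 37.1% of all tested names. By library totals 1 was higher and 7 lower, beside 23.0% and 52.2% of all tested names. miR-24-3p exceeded its PC12 level by 2.20 ± 0.16 (log2 ± SE, adjusted p = 0.0274 in limma), with 7814 and 7566 counts in RMT1 EV 1 and 2, against 2544 in EVd and 2238 in EVu. miR-26a-5p, at 1.66 ± 0.03 (adjusted p = 0.00792), and miR-181b-5p were also higher, though neither passed by library totals. miR-27b-3p, which represses Pax3 in mouse muscle progenitors, was lower by -6.90 ± 0.04 (adjusted p = 0.00217), with 90 and 74 counts in RMT1, against 14295 in EVd and 13599 in EVu. miR-29b-3p, miR-29c-3p and miR-322-5p were lower too, and these 4 stayed lower by library totals.

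Of 7 tested names reported to restrain muscle differentiation, 4 were higher, 1 lower and 2 not called, beside 33.1% higher and 37.1% lower over all tested names. By library totals 3 were higher and 3 lower, as miR-222-3p lost its call and miR-23a-3p and miR-125b-5p were lower. In that scaling 23.0% of all tested names were higher and 52.2% lower. miR-155-5p exceeded its PC12 level by 8.01 ± 0.12 (log2 ± SE, adjusted p = 0.00572 in limma), with 331 and 296 counts in RMT1, against 1 in EVd and 3 in EVu. miR-31a-5p had 49309 and 46967 counts in RMT1, against 0 in EVd and 3 in EVu. miR-221-3p was higher by 3.88 ± 0.19 (adjusted p = 0.0174) and miR-222-3p by 2.38 ± 0.26 (adjusted p = 0.0398), but both were unequal in PC12, with 319 and 20 counts in EVd against 9 and 2 in EVu. miR-221-3p had 691 and 771 CPM in RMT1 EV 1 and 2, against 943 CPM in EVd and 20.6 CPM in EVu, so EVd lay above RMT1. miR-222-3p had 27.5 and 33.5 CPM in RMT1, against 59.1 CPM in EVd and 4.58 CPM in EVu. With EVd and EVu as replicates of 1 group neither passed (adjusted p = 0.138 and 0.175 in limma), and miR-222-3p also did not pass in DESeq2 (adjusted p = 0.103). miR-186-5p was lower, by -3.01 ± 0.18 (adjusted p = 0.0214).

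**Figure D5:**
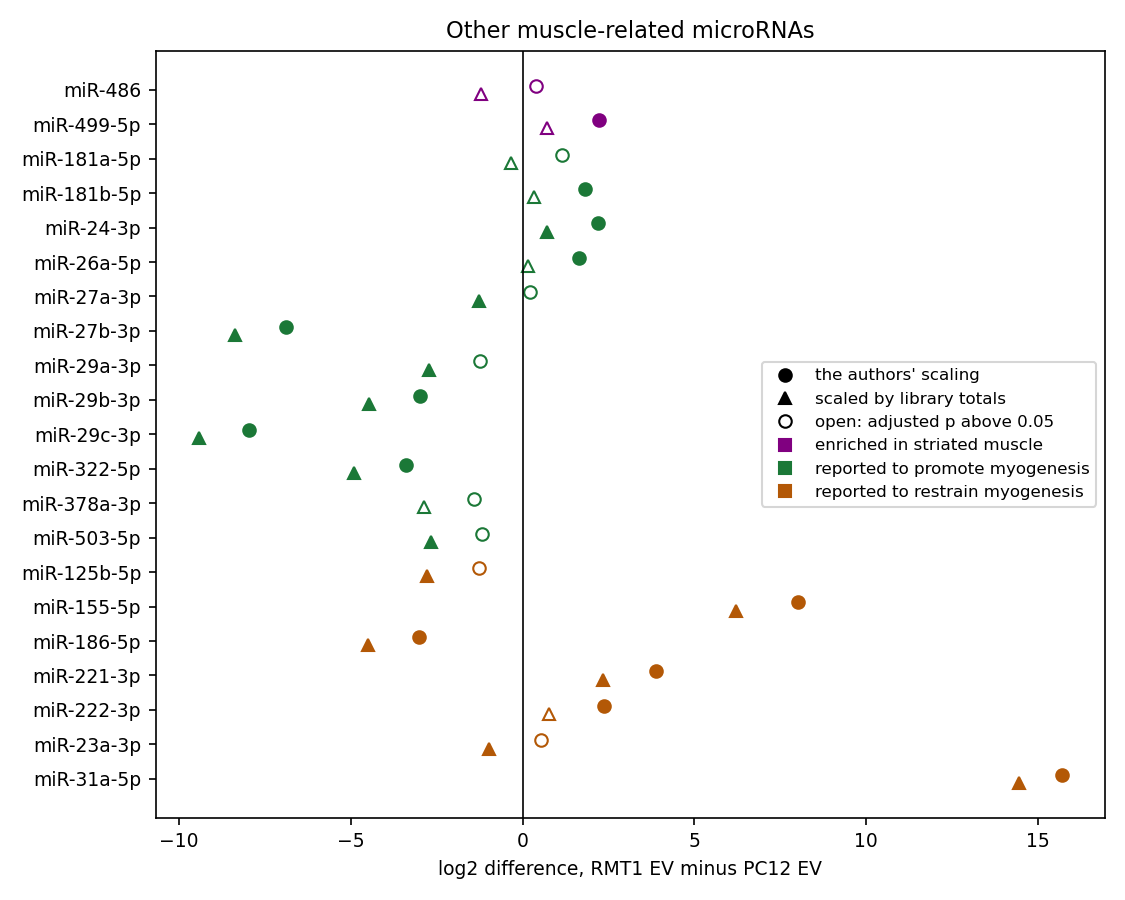
Log2 difference, RMT1 EV minus PC12 EV, of the 21 tested names of the list, in the authors' scaling (circles) and scaled by library totals (triangles), with open symbols where the limma adjusted p was above 0.05. Filled circles lie on both sides of 0, 8 above and 5 below.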

How the data were processed

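Small RNA libraries were made with the QIAseq miRNA kit, per the labels' protocols. The submitters' processing notes name mm10, a mouse build, while names carry the rat prefix. The sources used here do not give the aligner, the counter, the scaling method or whether counts are reads or molecules. The PC12 table holds the authors' raw counts per name, per the file headers. The table of all 4 libraries holds the authors' log2 normalized values, per the file headers, with 0 where nothing was counted. Its linear values were divided by 1 step per library to recover counts, and 100% of 1292 values above 0 came within 0.1 of a whole number. Shares use library totals. Ratios pool libraries of a line and carry exact conditional binomial 95% intervals.

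limma 3.58.1 with a mean-variance trend was run on names with a mean linear value of at least 10, as 3 groups, with RMT1 EV set against the mean of EVd and EVu, and Benjamini-Hochberg adjustment over all names. P-values then cover only spread between the deposited libraries, which may be technical. edgeR 4.0.16 and DESeq2 1.42.0 on recovered counts, other scalings, filters, pseudocounts and omitted libraries were alternatives. The fits were tested on simulated data. Named are all members, the 5 nearest names, and list and marker names. Members and lists were chosen with earlier results of these data known.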

Additional observations from a re-analysis of the deposited data

How the results depend on the processing

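The log2 ratio of miR-206-3p, RMT1 over PC12, kept its direction under every alternative run. As miR-206-3p was chosen for this gap, its direction was bound to hold, and only the size of the ratio is informative. From 8.66 it moved to 10.65 with the authors' normalized values, 7.59 with PC12 counts from the PC12 table, 7.68 against EVd alone, 10.64 against EVu alone and 8.51 with a pseudocount of 1 CPM, and it was 8.64 to 8.67 when either RMT1 library was left out. With the authors' normalized values the 7 partners summed went from -1.55 to -0.22, and miR-133a-3p with miR-133b-3p from -4.14 to -2.81. With PC12 counts from the PC12 table the 7 partners summed went to -4.17. That table lists 2 partner names, and 1 of them, miR-133b-5p, has 0 counts in each library of the other table. The value of -4.17 thus mixes unlike counts. With miR-1b added, a choice made after seeing the data, the sum reached 2.27, which rests on RMT1 EV 1. Without RMT1 EV 2 the partners were at -0.63, and without RMT1 EV 1 they gave no ratio because they had 0 counts. The members summed, EVd over EVu, were at 0.44 by the PC12 table and 1.11 by the table of all 4 libraries, where miR-133b-5p had no ratio.

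For the list of other muscle names, against 8 higher and 5 lower, library totals gave 4 and 10, edgeR 10 and 9, and DESeq2 9 and 9. The shares of all tested names called higher and lower shifted too. From 33.1% and 37.1% they went to 23.0% and 52.2% by library totals. In edgeR they were 36.0% and 52.2%, and in DESeq2 31.7% and 41.7%. Leaving out either RMT1 library, in a fit of 2 groups that treats EVd and EVu as replicates, gave 3 to 4 higher and 4 lower. Of the 5 names nearest to miR-206-3p, 2 were kept with a pseudocount of 10 CPM. The cause of these shifts was not tested. In all, 32 of the alternative values stayed within the limits set and 16 moved. The limit was the SD between RMT1 libraries for miR-206-3p (0.0185), the counting interval for other ratios and a set fold for counts of names. For miR-206-3p, leaving out either RMT1 library was bound to stay within that SD, so the tally does not measure stability. No paired analysis was possible because the groups share fewer than 2 replicate numbers. Depth limits the partners, whose values rest on 0 to 25 counts per library. So does the choice of table, which gave miR-133b-5p 25 or 0 counts in EVd.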

Other observations

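How often an abundant microRNA lacks its hairpin partners was counted as a description, after the member values were seen. Of 48 hairpins whose main arm had at least 1000 counts over both RMT1 libraries, 28 had another listed hairpin within 10 kb on the same strand. In 2 of these 28 every such neighbour was at 0 in RMT1. They were Mir206, with Mir133b as its neighbour, and Mir449a, a relative of the p53-responsive miR-34, with Mir449c. Other clusters held counts of their neighbours, such as miR-200c with miR-141 (7352 and 1837 counts) and miR-221 with miR-222 (1105 and 565). Copies of 1 microRNA at several loci count for each locus.

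Empty second arms were counted by name. Of 42 microRNAs with both arms listed by name in the table of all 4 libraries and at least 1000 RMT1 counts on the stronger arm, 9 (21.4%) had 0 counts of the weaker, miR-206 among them.

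Position 17 is where miR-1b and miR-1-3p differ (G17A), and nearly all counts of the miR-1 forms went to miR-1b, with 136 of 141 in RMT1 EV 1, 5 of 5 in EVd and 1 of 1 in EVu. The rule by name leaves miR-1b out, so the low partner sum of RMT1 EV 1 depends on that name, and RMT1 EV 2 held 0 counts of either form.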
